A study of Mus musculus with 14 samples.

Results

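The mitochondrial ribosomal protein genes were followed in the liver of mice on 3 diets. They were taken as every non-control probe whose gene name on the array, or whose current symbol, begins with Mrpl or Mrps and a number. This gave 108 probes for 75 genes, of which the brightest probe was used for each gene. All 75 passed the filter of being well above background in the animal's dye channel on at least 4 arrays, out of 32677 genes that passed it and 36096 with a probe. By the places known from ribosome structures, Mrps36 apart, 49 of the 75 are counted in the large and 26 in the small subunit (Mrps18a and Mrps30 with the large one). Of them, 44 are counted as having a bacterial homologue and 31 as specific to mitochondria. The 31 include Mrps18a and Mrps18b, although these are relatives of bacterial S18. Mrps36, now known as a subunit of a citric acid cycle enzyme complex, is still counted among the 26 and the 31. Mrpl41, Mrpl44 and Mrps18c were not analysed here.

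The mice were 1-year-old C57BL/6 males fed without restriction. A standard diet (AIN-93G) was given to 5 mice, the same diet altered so that fat supplied 60% of calories (the high-calorie diet) to 5 mice, and 4 mice received the high-calorie diet plus resveratrol, a polyphenol of plants, at 0.04%. The sources used here do not give the length of feeding. Each array carried the liver RNA of 1 mouse in the green dye Cy3 and a pool of 5 standard-diet livers in the red dye Cy5, so values are log2 ratios of mouse to pool. The dyes were never swapped, so a ratio above or below 0 also holds the probe's dye effect, and only differences between groups were read.

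Mitochondria carry a small genome whose protein products are subunits of the respiratory chain and of the ATP synthase, and these proteins are made inside the organelle by its own ribosome. The RNAs of that ribosome come from mitochondrial DNA, while all of its proteins are encoded in the nucleus, made in the cytosol and imported. The large subunit joins amino acids and the small subunit reads the messenger RNA. Liver cells are rich in mitochondria, which there carry out fatty acid oxidation, the urea cycle's first steps and much of the organ's energy supply.

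All 75 genes were well above background in both channels on all 14 arrays, and none was saturated. The value of Mrpl49 was missing on 1 array (high-calorie replicate 3), where its spot carried the scanner's outlier flag. The median net Cy3 signal of an array ran from 48.6 to 85.6 intensity units in the standard-diet group, from 57.7 to 114 in the high-calorie group and from 65.9 to 100.2 in the resveratrol group, and the lowest of all was that of standard-diet replicate 2. The labelled tissue was checked on hepatocyte genes: 10 of 12 listed markers were on the array, and all 10 were well above background on all arrays. The median log2 ratio of these 10 ranged over 0.56 to 0.92 in the standard-diet, 0.40 to 0.54 in the high-calorie and 0.43 to 0.67 in the resveratrol group. That of 10 macrophage markers, all well above background, was -0.82 to -0.61, -0.43 to -0.21 and -0.86 to 0.20 in the same order. That of 8 stellate cell markers, 7 of them well above background on all arrays, was -0.11 to 0.08, 0.12 to 0.17 and -0.10 to 0.16. The ranges of the standard-diet and high-calorie groups did not overlap for these 3 lists. They overlapped for the lists of 6 other cell types. By summed Cy3 signal these 2 groups overlapped for the hepatocyte (170572 to 217470 and 200830 to 219214) and stellate cell markers (2899 to 3628 and 3018 to 3573). By that measure they did not overlap for the macrophage markers (2212 to 2648 and 2706 to 3247). Nor did they for 6 cholangiocyte markers (1051 to 1259 on the standard and 1412 to 1666 on the high-calorie diet). The part of these markers in the differences below was not tested. In whole liver, fewer cells of a type and less RNA per cell cannot be told apart.

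Promoter windows of RefSeq (build GRCm38.p6), from 250 bases before to 50 after each annotated start, were given for 66 of the 75 genes, in 72 windows. The letters looked for are those of regulators known for nuclear genes of mitochondria, searched on both strands. The strict NRF1 letters GCGCATGCG were in 7 of the 72 windows (9.72%), beside 1.75% of all 32851 windows of that length. The looser NRF1 letters GCNTGCGC were in 21 (29.2%, beside 9.95%), and each of the 11 strict matches holds a looser one. The ETS letters CCGGAAG, bound by GABPA, were in 25 (34.7%, beside 8.86%), and the YY1 letters AAGATGGCG in 8 (11.1%, beside 1.4%). The E-box CACGTG was in 6 (8.33%, beside 7.15%), and TATAAA in 5 (6.94%, beside 13.6%). The 6 E-box windows are of 4 genes, as overlapping windows of Mrpl2 hold the same site. In all, 44 member genes held at least 1 match to the NRF1, ETS or YY1 letters. A match describes the letters of a window and not a site in use. The stretches below are those around the strict NRF1 letters, printed for the 7 genes that hold them, with the match in capitals (overlapping matches as 1 run), 5′ to 3′ on the gene's strand.

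Mrpl9, chr3:94443300-94443325, plus strand: gcgcagctGCGCATGCGCggggtcct
Mrpl10, chr11:97041439-97041463, plus strand: cagctccaCGCATGCGCatagcggc
Mrpl17, chr7:105811082-105811106, minus strand: gagttactGCGCATGCGtcctctga
Mrpl22, chr11:58171623-58171647, plus strand: ctcggactGCGCATGCGtatagtca
Mrpl32, chr13:14613107-14613132, minus strand: tgacccttGCGCATGCGCaagagggg
Mrpl32, chr13:14613044-14613068, minus strand: ggacttaaCGCATGCGCtcagcccg
Mrpl39, chr16:84735352-84735377, minus strand: ggagaggcGCGCATGCGCccccgcgt
Mrps18b, chr17:35916648-35916672, minus strand: cggcccgaCGCATGCGCactgggag

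In these 7 genes the match began between 11 bases (Mrpl17) and 224 bases (Mrps18b) before the start. Of the 30 ETS matches, 28 began no more than 100 bases before the start, and 6 of the 8 YY1 matches began after it.

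**Figure D1:**
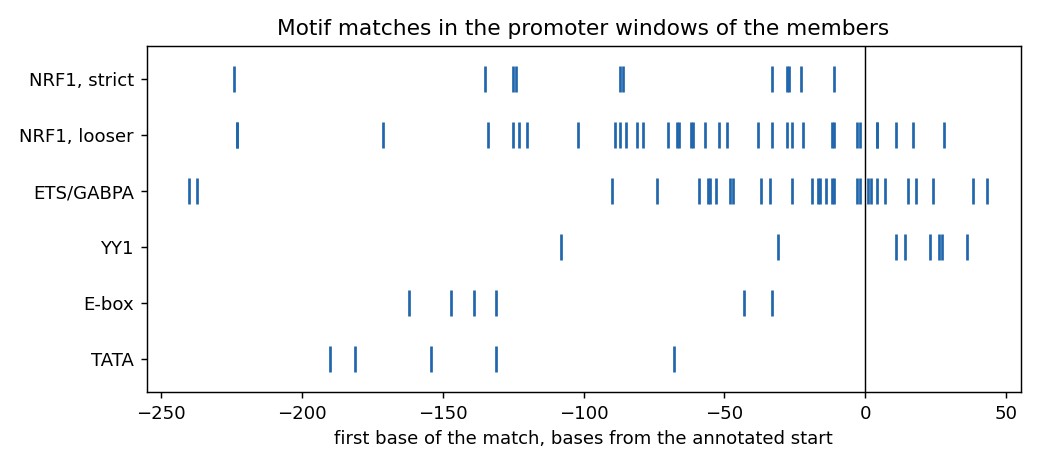
Position of each motif match (1 tick per match in a window, both strands) in the 72 promoter windows, in bases from the annotated start at 0. The E-box of Mrpl2 is drawn once for each of its overlapping windows. Of the 30 ETS matches, 28 began within 100 bases before the start or after it, and of the 5 TATA matches the nearest began 68 bases before it.

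Over the members as a group, the arrays differed mainly by 1 standard-diet mouse. The median log2 ratio of the 75 genes was -0.09, -0.27, -0.04, -0.02 and 0.02 in standard-diet replicates 1 to 5. It was 0.01, -0.01, 0.06, -0.01 and -0.02 in the high-calorie replicates 1 to 5, and -0.14, -0.04, -0.13 and 0.01 in resveratrol replicates 1 to 4. Standard-diet replicate 2 was the lowest by a wide margin, and the groups overlapped. That mouse held the lowest value of 48 of the 75 genes, and resveratrol replicate 1 came next with 9. The arrays of standard-diet replicates correlated with each other over all genes at 0.525 to 0.869, against 0.769 to 0.888 within the high-calorie and 0.435 to 0.794 within the resveratrol group. Within groups the members' SD was 0.05 to 0.34 with a median of 0.14 (log2), beside a median of 0.09 over all genes tested. All members, but only 26042 of the 32677 genes, were well above background on all 14 arrays. The part of brightness in this spread was not tested.

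**Figure D2:**
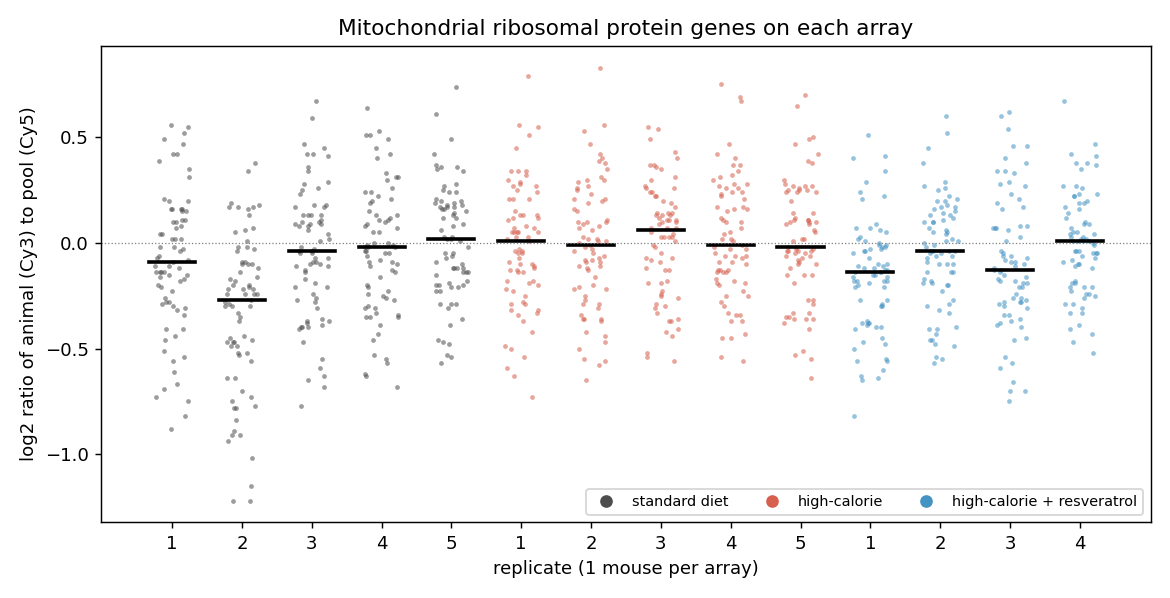
Log2 ratio of mouse to pool for each of the 75 genes (points) on each of the 14 arrays, with the array's median as a black bar and colours for the 3 diets. The median of standard-diet replicate 2, at -0.27, lies below all others, which run from -0.14 to 0.06.

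The high-calorie diet was set against the standard diet first. In limma with Benjamini-Hochberg adjustment over all 32677 genes (called at an adjusted p under 0.05), 4 members rose (Mrpl16, Mrpl46, Mrpl42 and Mrpl13) and 1 fell (Mrpl38), all of the large subunit and all by less than 1.3-fold. These 5 of 75 genes (6.67%) stand beside 9.43% of all genes called in that comparison, with 5.37% called higher and 4.07% called lower. Under this main setting the members were therefore not called more often than genes at large, but with median centring they were (below). At an unadjusted p under 0.05, 15 were higher and 3 lower, beside 14.3% and 13.3% of all genes.

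The direction of the small differences was uneven. Of the 75 genes, 57 (76.0%) had a difference above 0, beside 49.2% of all genes, and the median difference was 0.10 beside -0.0021 over all genes (log2). In 8 members (10.7%) every high-calorie mouse lay above every standard-diet mouse, beside 5.15% of all genes, and in 1, Mrps18b, every one lay below, beside 5.17%. The 8 were Mrpl11, Mrpl13, Mrpl16, Mrpl27, Mrpl42, Mrpl49, Mrpl54 and Mrps18a, of which Mrpl27, Mrpl49 and Mrpl54 are named only because their values were seen to lie apart. Without standard-diet replicate 2 the median difference was 0.05 and 46 genes lay above 0. Then 3 were called higher and 2 lower, beside 1371 and 957 of all 32677 genes. Without standard-diet replicate 5, 12 were called higher and 2 lower, beside 3408 and 2585 of all genes, and the median was 0.13. The calls thus rose over all genes as well. With the brightness of each array as a covariate the median was 0.06 and 1 member was called higher, beside 551 of all genes. Within the arrays of the first extraction day the median was 0.05, within those of the second 0.17, and within the second slide number series 0.10.

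**Figure D3:**
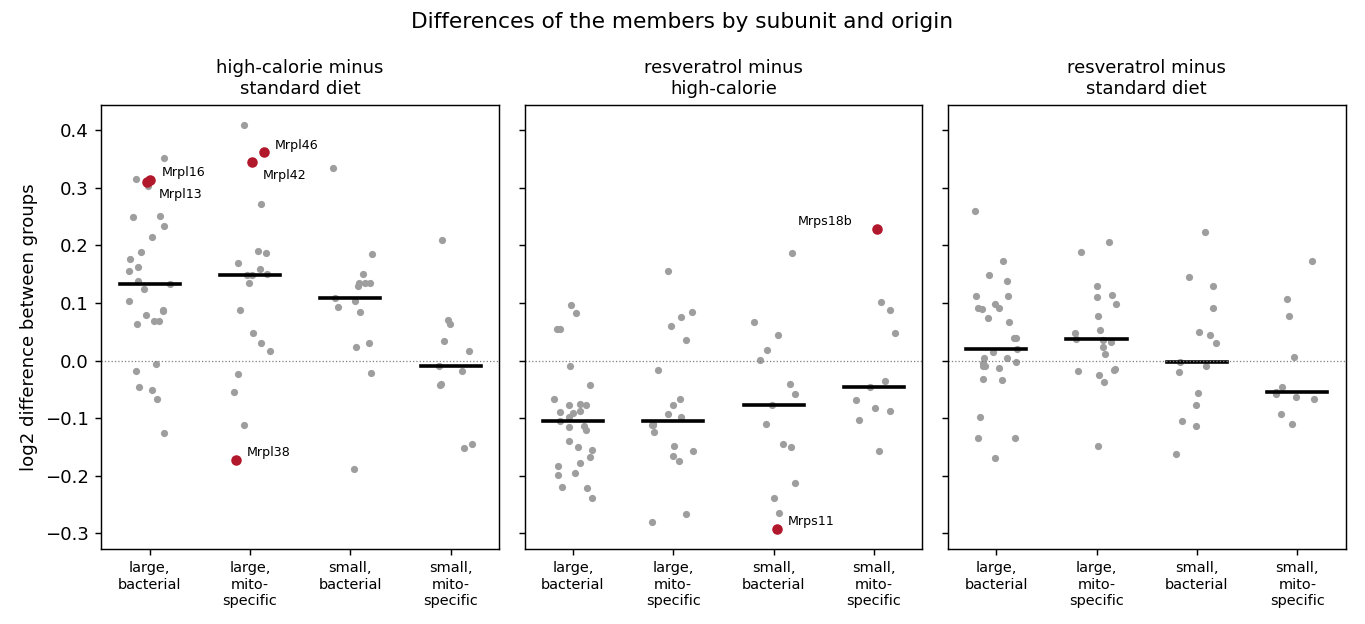
Log2 difference between groups for each of the 75 genes (points) in the 3 comparisons, by subunit and by whether the protein is counted as having a bacterial homologue. Black bars are class medians and red points with names are genes called by limma at an adjusted p under 0.05: 5 for the high-calorie diet, 2 for resveratrol on that diet, and none between the resveratrol and standard-diet mice.

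By class, as counted above, 23 of the 29 large-subunit proteins with a bacterial homologue lay above 0 with a median of 0.13, of which 2 rose. Of the 20 specific to mitochondria in the large subunit, 16 lay above 0 with a median of 0.15, and 2 rose and 1 fell. In the small subunit 13 of 15 with a bacterial homologue lay above 0 (median 0.11) and 5 of 11 specific to mitochondria (median -0.01), and none was called. The 11 include Mrps36. Whether the classes differ from each other was not tested.

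Mrpl16, the homologue of a bacterial protein near the centre where peptide bonds form, had log2 ratios of -0.28, -0.56, -0.40, -0.39 and -0.39 in the standard-diet mice. The high-calorie mice had -0.10, -0.22, 0.03, -0.06 and -0.10, and the resveratrol mice -0.45, -0.29, -0.31 and -0.19. All high-calorie mice were above all standard-diet mice, and the lowest of them lay below 1 resveratrol mouse. The group means were -0.40 ± 0.10 (SD, n = 5), -0.09 ± 0.09 (SD, n = 5) and -0.31 ± 0.11 (SD, n = 4), so that Mrpl16 rose by 0.31 ± 0.06 (SE; 1.24-fold) on the high-calorie diet (limma, adjusted p = 0.00683). RefSeq places its start on chromosome 19, and its window is shown because it is that of the member with the smallest p and holds a TATA match, in capitals, 68 bases before the start.

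Mrpl16, chr19:11770315-11770414, plus strand: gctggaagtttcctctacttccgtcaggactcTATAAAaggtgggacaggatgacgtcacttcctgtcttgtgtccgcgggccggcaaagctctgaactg

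Mrpl46, a protein of the large subunit's central protuberance, had 0.10, -0.20, 0.17, 0.05 and 0.27 in the standard-diet mice and 0.45, 0.53, 0.26, 0.47 and 0.47 in the high-calorie mice. The resveratrol mice had 0.05, 0.25, 0.38 and 0.38. All but 1 high-calorie mouse lay above the highest standard-diet mouse, and the resveratrol mice overlapped both groups. Mrpl46 rose by 0.36 ± 0.09 (SE; 1.28-fold; limma, adjusted p = 0.0203).

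Mrpl42, a mitochondria-specific protein, had -0.06, -0.44, -0.10, -0.02 and 0.14 on the standard diet and 0.15, 0.19, 0.36, 0.23 and 0.30 on the high-calorie diet. With resveratrol the values were -0.12, 0.07, -0.19 and 0.16. The high-calorie mice all lay above the standard-diet mice, by a margin of 0.01 at the nearest pair, and 1 resveratrol mouse reached them. Mrpl42 rose by 0.34 ± 0.09 (SE; limma, adjusted p = 0.0349), and its other, dimmer probe differed by 0.50 ± 0.16 (SE) in the same direction.

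Mrpl13, which has a bacterial homologue, had -0.41, -0.77, -0.41, -0.35 and -0.19 on the standard diet and -0.18, -0.08, -0.18, -0.06 and -0.08 on the high-calorie diet. The resveratrol mice had -0.40, -0.19, -0.45 and -0.21. Every high-calorie mouse was above every mouse of the other groups, by a small margin at the nearest. Mrpl13 rose by 0.31 ± 0.09 (SE; limma, adjusted p = 0.040).

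Mrpl38, another protein of the central protuberance, had 0.49, 0.38, 0.59, 0.53 and 0.37 on the standard diet and 0.34, 0.25, 0.37, 0.31 and 0.24 on the high-calorie diet. With resveratrol it had 0.41, 0.45, 0.54 and 0.41. The high-calorie mice were the lowest, and their highest value met the lowest of the standard-diet mice. Mrpl38 fell by 0.17 on the log2 scale (SE 0.05; limma, adjusted p = 0.0412). Its other probes, both dimmer and well above background on all arrays, differed by -0.08 ± 0.04 and 0.07 ± 0.09 (SE), so that they did not share 1 direction.

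**Figure D4:**
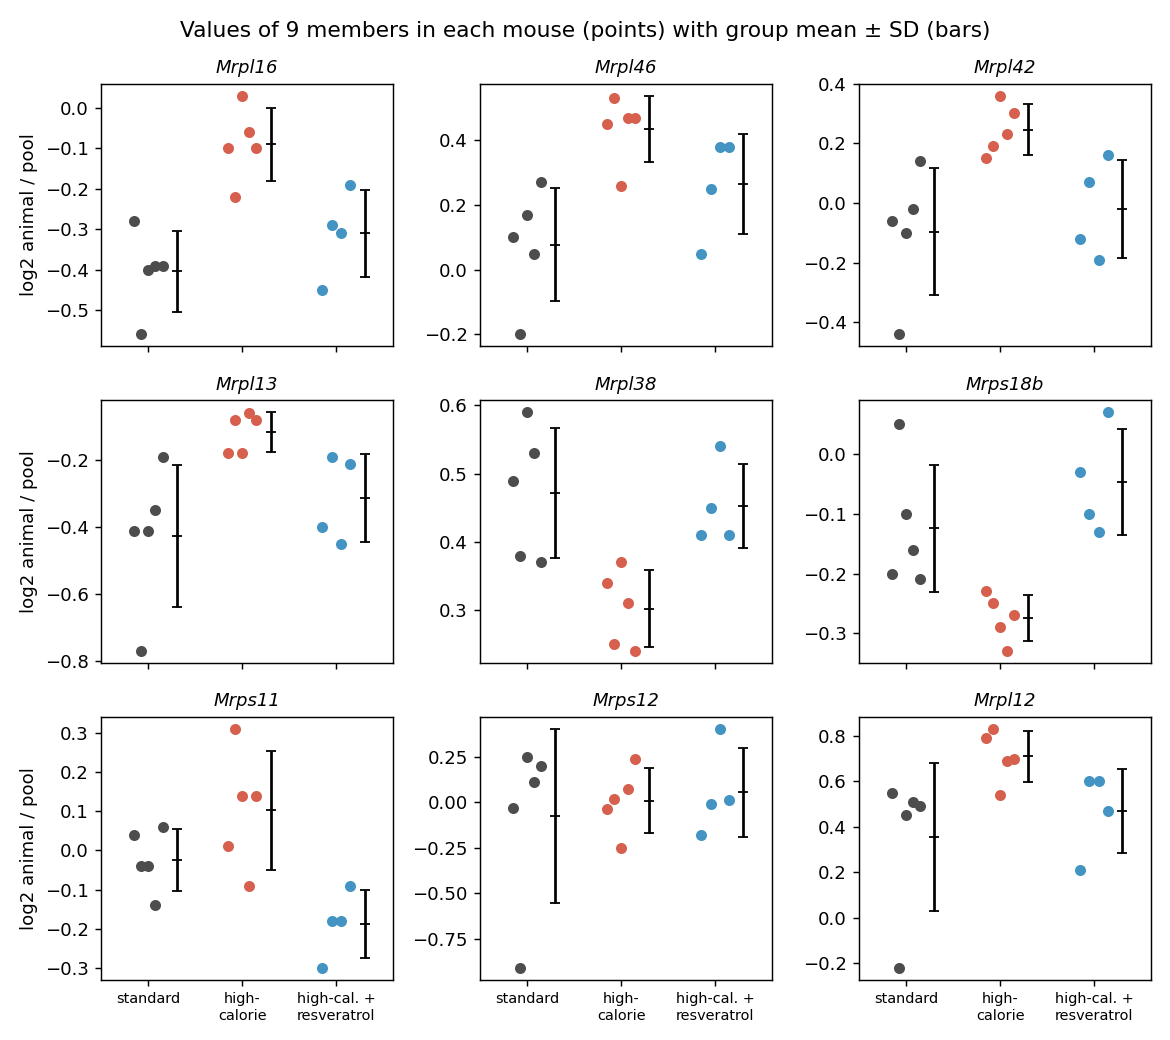
Log2 ratio of mouse to pool in each mouse (points) for the 7 members called in a comparison and for Mrps12 and Mrpl12, with the group mean and SD (bars; n = 5, 5 and 4). The high-calorie mice lie above the standard-diet mice in Mrpl16, Mrpl42 and Mrpl13 without overlap, and below all others in Mrps18b.

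The call of Mrpl16 held when each of the 14 arrays was left out in turn. That of Mrpl46 was lost without high-calorie replicate 2 (limma, adjusted p = 0.0529) or 5 (0.0547). Mrpl42 lost its call without any of standard-diet replicates 1 to 4 or of the high-calorie mice (0.0505 to 0.0876), and Mrpl13 without standard-diet replicate 1, 3 or 4 or any high-calorie mouse (0.0543 to 0.0931). Mrpl38 lost it without standard-diet replicate 1, 3 or 4, high-calorie replicate 1, 2, 4 or 5, or resveratrol replicate 2 (0.0519 to 0.108). Each difference kept its direction.

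The arrays fall into 2 days of image extraction and 2 series of slide numbers, neither of which is a day of RNA preparation. High-calorie replicates 1 and 4 fell in the first of both, and replicates 2, 3 and 5 in the second of both. All standard-diet arrays were of the second series, and all resveratrol arrays were of the first day. Diet and batch can therefore not be fully told apart. With the day as a block, Mrpl16, Mrpl46 and Mrpl13 passed in limma (adjusted p = 0.00791, 0.0266 and 0.0498), and Mrpl42 and Mrpl38 did not (0.0505 and 0.0504). With the slide series as a block, Mrpl16 and Mrpl42 passed (0.0213 and 0.046), and Mrpl46, Mrpl13 and Mrpl38 did not (0.0535, 0.0614 and 0.0692). Within the first day, the second day and the second slide series, the difference of Mrpl16 was 0.27, 0.38 and 0.31, and that of Mrpl46 0.36, 0.39 and 0.35. In the same order it was 0.25, 0.43 and 0.38 for Mrpl42, 0.27, 0.37 and 0.31 for Mrpl13, and -0.21, -0.09 and -0.19 for Mrpl38. The directions were those of all arrays together, and none of the within-batch values was called.

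Resveratrol on the high-calorie diet was set against that diet alone. In limma, 1 member rose, Mrps18b, and 1 fell, Mrps11, both of the small subunit. These 2 of 75 (2.67%) stand beside 5.39% of all genes called, 3.16% higher and 2.22% lower. At an unadjusted p under 0.05, 2 were higher and 9 lower, beside 11.1% and 11% of all genes. The median difference was -0.09 beside -0.0068 over all genes, and 18 of 75 lay above 0 (24.0%, beside 47.3%). In 2 members the groups lay apart upward (2.67%, beside 6.82%) and in 2 downward (2.67%, beside 6.15%). This comparison and that of the diets share the high-calorie mice.

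Mrps18b, 1 of the 3 mammalian relatives of bacterial S18, had -0.20, 0.05, -0.10, -0.16 and -0.21 in the standard-diet mice. The high-calorie mice had -0.23, -0.25, -0.29, -0.33 and -0.27, and the resveratrol mice -0.03, -0.10, -0.13 and 0.07. The high-calorie mice lay below every mouse of the other groups. Mrps18b was 0.23 ± 0.06 (SE; 1.17-fold) higher with resveratrol than without (limma, adjusted p = 0.0321). Its difference between high-calorie and standard diet was -0.15 ± 0.05 (limma, adjusted p = 0.082), not called. A dimmer probe, above background on 13 arrays, differed by 0.11 ± 0.45 (SE) with resveratrol, an error too wide to tell a direction.

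Mrps11, the homologue of a protein of the bacterial small subunit's platform, had 0.04, -0.04, -0.04, -0.14 and 0.06 on the standard diet. The high-calorie mice had 0.01, 0.31, 0.14, -0.09 and 0.14, and the resveratrol mice -0.30, -0.18, -0.18 and -0.09. All resveratrol mice lay below all high-calorie mice, the nearest pair being equal after rounding, and they overlapped the standard-diet mice. Mrps11 fell by 0.29 (SE 0.07; 0.817-fold) with resveratrol (limma, adjusted p = 0.0325).

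The call of Mrps18b was lost without any high-calorie mouse or resveratrol replicate 1 or 4 (limma, adjusted p = 0.0537 to 0.0991), and that of Mrps11 without high-calorie replicate 2, 3 or 5 or resveratrol replicate 1, 2 or 3 (0.0561 to 0.116). With the extraction day as a block neither passed (0.0665 and 0.152), nor with the slide series (0.0794 and 0.0831). Within the first day, the first slide series and the second, Mrps18b differed by 0.23, 0.25 and 0.17 and Mrps11 by -0.15, -0.15 and -0.38. The direction was the same in each, and the size for Mrps11 moved by over 1.5 times. The second series held resveratrol replicate 2 alone of its group, so its values rest on that mouse. The first day and the first series held the same high-calorie mice, replicates 1 and 4. These values are therefore not independent repeats. Without standard-diet replicate 2, or without resveratrol replicate 4, 4 members were called lower, beside 1248 and 848 of all genes.

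The resveratrol mice were last set against the standard-diet mice. None of the 75 genes was called in limma, where 0.214% of all genes were (0.125% higher and 0.0887% lower). At an unadjusted p under 0.05, 2 members were higher (Mrpl3 and Mrpl57) and 2 lower (Mrpl24 and Mrps11), beside 4.93% and 5.68% of all genes. The median difference was 0.02, with 43 of 75 above 0 (57.3%, beside 50.2%), and it was -0.03 without standard-diet replicate 2. No member's groups lay apart, as 1.09% of all genes did upward and 1.85% downward.

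The 4 members of smallest p are given as values. Mrpl3, the homologue of a bacterial protein close to the peptide-forming centre, had -0.51, -0.78, -0.37, -0.46 and -0.15 in standard-diet mice, -0.34, -0.29, -0.37, -0.14 and -0.27 in high-calorie mice and -0.11, -0.19, -0.28 and -0.21 in resveratrol mice. The resveratrol mice lay above all standard-diet mice but 1, and the difference was 0.26 ± 0.09 (SE, limma, adjusted p = 0.348). Its other probes, all dimmer, differed by 0.14 ± 0.10, -0.09 ± 0.12 and -0.09 ± 0.05 (SE), so that they did not share 1 direction. For Mrps11 the difference was -0.16 ± 0.07 (limma, adjusted p = 0.447), for Mrpl24, a large-subunit protein with a bacterial homologue, -0.13 ± 0.06 (0.452), and for Mrpl57, specific to mitochondria, 0.11 ± 0.05 (0.464). The other, dimmer probe of Mrpl57 differed by 0.03 ± 0.05 (SE).

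Several members are known for particular roles, and their values follow whatever their test. Mrpl12 forms the stalk that recruits translation factors and is also known to bind the mitochondrial RNA polymerase. Its values were 0.55, -0.22, 0.45, 0.51 and 0.49 on the standard diet, 0.79, 0.83, 0.54, 0.69 and 0.70 on the high-calorie diet and 0.21, 0.60, 0.60 and 0.47 with resveratrol. All high-calorie mice but 1 lay above the highest standard-diet mouse, and standard-diet replicate 2 was far below the rest. The difference between these diets was 0.35 ± 0.13 (SE; limma, adjusted p = 0.098), and between the resveratrol and high-calorie mice -0.24 ± 0.14 (0.333).

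Mrpl11, at the base of the same stalk, had -0.02, -0.16, -0.17, -0.09 and -0.12 on the standard diet and 0.05, 0.00, 0.03, -0.02 and 0.02 on the high-calorie diet. The groups did not overlap before rounding, by a narrow margin, and the difference was 0.13 ± 0.04 (SE; limma, adjusted p = 0.061). With resveratrol the values were -0.11, 0.06, -0.09 and 0.04, which overlapped both groups.

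Mrps12, a protein of the decoding centre, had the largest spread within groups of all members (SD 0.34). Its values were -0.03, -0.91, 0.25, 0.11 and 0.20 on the standard diet, -0.04, 0.02, -0.25, 0.07 and 0.24 on the high-calorie diet and -0.18, -0.01, 0.40 and 0.01 with resveratrol. The 3 groups overlapped throughout, and the differences were 0.08 ± 0.19 for the high-calorie diet and 0.04 ± 0.20 for resveratrol on it (SE; limma, adjusted p = 0.808 and 0.927). Mrpl15, a large-subunit protein with a bacterial homologue and the next largest spread (SD 0.29), had -0.54, -1.22, -0.40, -0.25 and -0.02 on the standard diet, from -0.33 to -0.15 on the high-calorie diet and from -0.50 to -0.20 with resveratrol. Its spread lay in the standard-diet mice.

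Mrps5, the homologue of a bacterial small-subunit protein and known from studies of lifespan in mouse strains, had 0.02, -0.18, 0.41, 0.45 and -0.21 on the standard diet. It had -0.07, -0.06, -0.02, -0.14 and -0.15 on the high-calorie diet and -0.20, 0.01, 0.46 and 0.10 with resveratrol. The high-calorie mice were close together inside the range of the others. The differences were -0.19 ± 0.14 for the high-calorie diet and 0.19 ± 0.14 for resveratrol on it (SE; limma, adjusted p = 0.392 and 0.486), and 3 of its 4 probes had those signs.

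Of the relatives of bacterial S18, Mrps18a sits in the large subunit. It had -0.14, -0.64, 0.17, -0.02 and 0.17 on the standard diet and 0.21, 0.26, 0.19, 0.42 and 0.49 on the high-calorie diet, without overlap. The difference, 0.41 ± 0.14 (SE; limma, adjusted p = 0.073), was the largest of the 75 in size and was not called, and Mrps18b, which differed by -0.15 between the same groups, went the other way. With resveratrol Mrps18a had -0.21, 0.20, -0.06 and 0.22, a difference from the high-calorie mice of -0.28 ± 0.15 (0.281). Mrpl58, a release factor that frees stalled chains and is built into the large subunit, had group means of 0.07 ± 0.10 (SD, n = 5), 0.01 ± 0.03 (SD, n = 5) and 0.05 ± 0.05 (SD, n = 4). Its groups overlapped and its difference on the high-calorie diet was -0.05 ± 0.05 (SE; limma, adjusted p = 0.476).

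Among the 24 members with several probes, 21 had more than 1 probe well above background on all arrays. All of those probes had the same sign in 15 of the 21 genes for the high-calorie diet, in 18 for resveratrol on it and in 12 for resveratrol against the standard diet. No member differed by more than 0.5 (log2) in any comparison. Mrps36, named above as a subunit of a citric acid cycle enzyme complex, also has pseudogenes whose RNA its probe could bind. Its difference on the high-calorie diet was 0.06 (limma, adjusted p = 0.692). The other probe of Mrps36, slightly dimmer and well above background on all arrays, differed by 0.15 ± 0.07 (SE).

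The other genes that make and serve this ribosome were taken from lists and read under the main setting only. Over all genes, 5.37% were called higher and 4.07% lower on the high-calorie diet, and 3.16% and 2.22% with resveratrol on it. Of 5 measured mitoribosomal proteins without an Mrp symbol, 2 rose on the high-calorie diet, Ptcd3 (0.37 ± 0.07) and Dap3 (0.23 ± 0.06), and 2 fell, Gadd45gip1 (-0.32 ± 0.07) and Aurkaip1 (-0.19 ± 0.05; log2 with SE; limma, adjusted p = 0.0076, 0.0268, 0.0159 and 0.0221). Ptcd3, Dap3 and Aurkaip1 belong to the small subunit and Gadd45gip1 to the large one. None of the 5 was called for resveratrol.

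The median over 15 mitochondrial translation factors on the high-calorie diet was 0.14, beside -0.0021 over all genes. Of the 15, 3 rose and none fell, beside 5.37% and 4.07% of all genes. They were Gfm2, which recycles the ribosome (0.30 ± 0.06), Taco1, an activator of cytochrome oxidase translation (0.26 ± 0.05), and Gfm1, which moves the ribosome along (0.36 ± 0.10; limma, adjusted p = 0.0095, 0.0077 and 0.0398). Of 23 assembly and rRNA modification genes, 5 rose and none fell, beside the same shares of all genes, and the median was 0.07. Trub2, a pseudouridine synthase, had the largest difference among them, 0.65 ± 0.12, followed by the RNA methyltransferase genes Trmt2b (0.37 ± 0.10) and Mettl15 (0.34 ± 0.06), and by Rmnd1 (0.34 ± 0.08; limma, adjusted p = 0.0056, 0.0306, 0.006 and 0.0233). None of these 38 genes was called for resveratrol in either comparison.

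Of 17 mitochondrial tRNA charging genes, Gatb, a subunit of the enzyme that makes glutaminyl-tRNA, rose on the high-calorie diet by 0.27 ± 0.05 and fell with resveratrol on it by 0.25 (SE 0.05; limma, adjusted p = 0.0044 and 0.0143). Its values were from -0.15 to -0.03 in standard-diet, from 0.13 to 0.26 in high-calorie and from -0.13 to 0.03 in resveratrol mice, so the high-calorie mice stood apart from both. Of 20 genes for mitochondrial DNA and RNA, Hsd17b10, a subunit of the RNase that trims mitochondrial tRNAs, and Twnk, the DNA helicase, rose on the high-calorie diet (0.38 ± 0.10 and 0.20 ± 0.05; adjusted p = 0.0369 and 0.0392), and Twnk fell with resveratrol by 0.31 (SE 0.06; limma, adjusted p = 0.0166).

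Of 8 regulators of nuclear genes for mitochondria none was called on the high-calorie diet. With resveratrol the mRNA of Myc, a growth regulator, fell by 0.23 (SE 0.05; limma, adjusted p = 0.017). Of 12 protease and protein-stress genes, 3 rose on the high-calorie diet, beside 5.37% of all genes. The 3 were Clpx (0.58 ± 0.09), the unfoldase of the matrix protease, and the chaperonin genes Hspd1 (0.35 ± 0.07) and Hspe1 (0.35 ± 0.09, limma, adjusted p = 0.0017, 0.0115 and 0.0351). None of the 12 was called for resveratrol.

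The genes of the cytosolic ribosome were taken as a comparison. They were read under the main setting only, and how the scaling moves them was not tested. Of 78 cytosolic ribosomal protein genes 46 fell on the high-calorie diet and none rose, beside 4.07% and 5.37% of all genes. The median of the 78 was -0.29. Among those that fell were Rps25 (-0.45 ± 0.04), Rpl37a (-0.59 ± 0.06), Rpl36a (-0.43 ± 0.05) and Rps27 (-0.47 ± 0.05, limma, adjusted p = 9.78e-05, 0.000124, 0.000181 and 0.000198). With resveratrol on that diet 18 rose and none fell, beside 3.16% and 2.22% of all genes. The median was 0.13, and Rps21 had the smallest p (0.44 ± 0.06, limma, adjusted p = 0.00432). Against the standard diet 2 were lower in the resveratrol mice, Rps25 and Rpl35, beside 0.0887% of all genes, and the median was -0.15. The array medians of these genes were -0.09 to 0.10 in standard-diet and -0.33 to -0.19 in high-calorie mice, where those of the mitochondrial members overlapped.

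A list of 75 oxidative phosphorylation genes was taken by symbol, with the electron carrier gene Cycs among them. On the high-calorie diet, where 5.37% of all genes were called higher, 3 of the 75 rose. These were Ndufa7, Cycs and Ndufs1 (0.27 ± 0.05, 0.34 ± 0.08 and 0.46 ± 0.11, limma, adjusted p = 0.00275, 0.0188 and 0.0232), and the median of the 75 was 0.06. With resveratrol on it 2 fell, beside 2.22% of all genes, and the median was -0.12. The 2 were Ndufa3, by 0.28, and Ndufa7, by 0.18 (SE 0.06 and 0.05, limma, adjusted p = 0.0225 and 0.0422). None of the 75 was called between resveratrol and standard-diet mice.

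Some members start close to another gene. In RefSeq, 24 of the 66 members with a window have another gene that starts within 1000 bases in the opposite direction, head to head, and the share over all genes was not computed. One such pair joins 2 of the called members: Mrpl46 and Mrps11 start 42 bases apart on chromosome 7. The 41 bases between the starts are shown as the stretch between them and hold none of the motifs searched.

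Mrpl46 and Mrps11, chr7:78783090-78783130, plus strand: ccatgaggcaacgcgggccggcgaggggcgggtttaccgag

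On the high-calorie diet Mrpl46 differed by 0.36 and Mrps11 by 0.13 ± 0.07 (SE; limma, adjusted p = 0.229). With resveratrol on it Mrpl46 differed by -0.17 ± 0.09 (adjusted p = 0.286 in limma) and Mrps11 by -0.29, the same signs in both comparisons. Against the standard diet the resveratrol mice had Mrpl46 at 0.19 and Mrps11 at -0.16, of opposite sign.

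Over the 19 pairs with both genes tested, the partners had the same sign in 9 for the high-calorie diet, in 10 for resveratrol on it and in 7 for resveratrol against the standard diet. Mrpl43 and Twnk start 116 bases apart and differed by 0.16 and 0.20 on the high-calorie diet and by -0.11 and -0.31 with resveratrol on it. Mrpl49 and Fau, a gene of a cytosolic ribosomal protein, start 192 bases apart and differed by 0.17 ± 0.05 and -0.33 ± 0.08 on the high-calorie diet (SE; limma, adjusted p = 0.068 and 0.0225). Mrpl43 and Mrpl49 and their partners are named for these distances and values after they were seen.

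How the ratios are scaled moved the members as a group. With each array centred on its median in place of the loess curve, the members' median difference on the high-calorie diet was 0.28, beside 0.01 over all genes. There 66 of 75 lay above 0, and 16 were called higher and none lower, beside 2396 and 636 of all 32677 genes. With this scaling the members were thus called more often than genes at large. With resveratrol on that diet the members' median was -0.14, and against the standard diet 0.15. From the Cy3 channel alone the 3 medians were 0.07, -0.14 and -0.03, and no member was called in limma. The direction was the same under all settings for the high-calorie diet (0.05 to 0.28 in log2 units) and for resveratrol on it, but not for resveratrol against the standard diet.

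**Figure D5:**
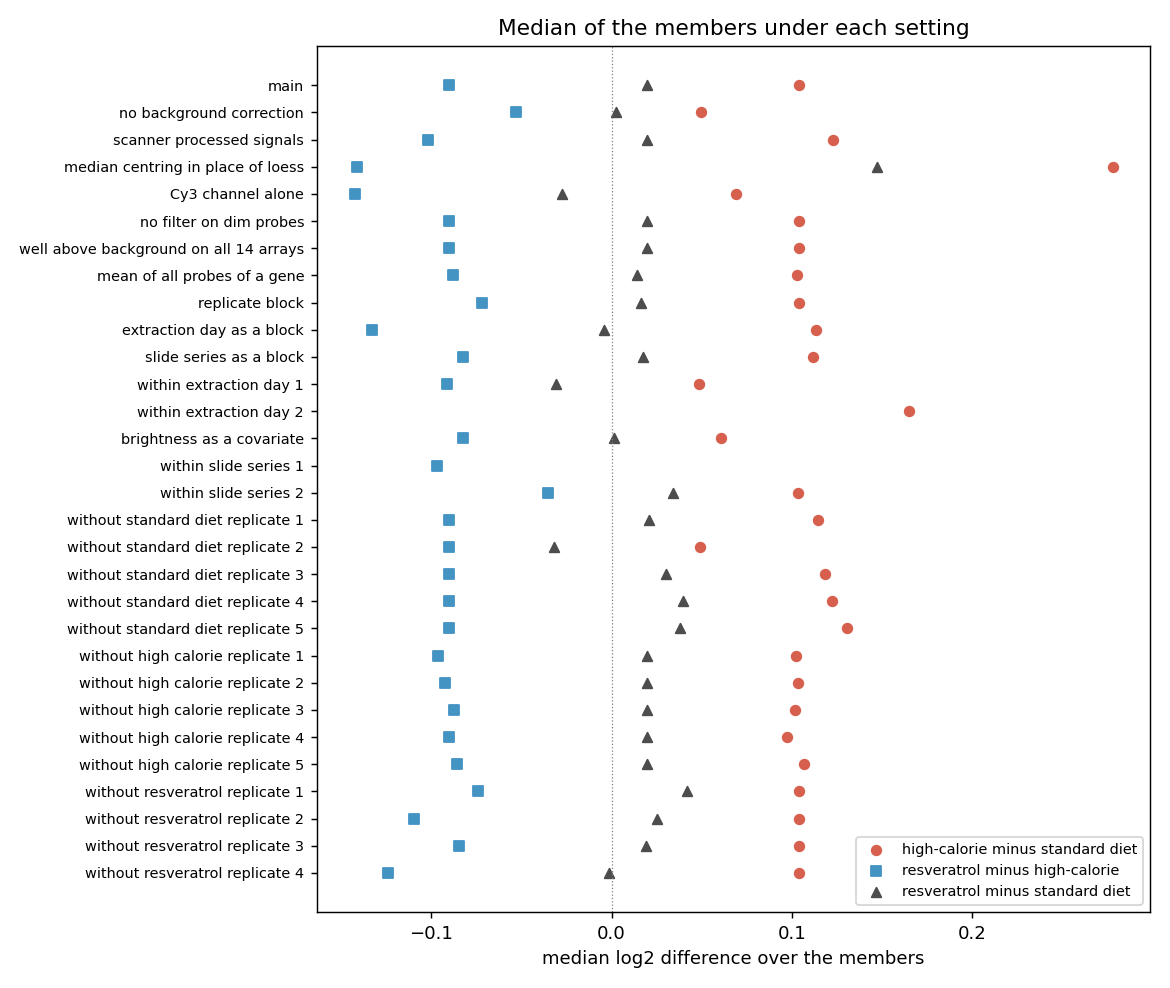
Median log2 difference over the members under the main setting and each alternative in log2 units, for the 3 comparisons (a within-batch point is drawn only where the batch holds both groups). For the high-calorie diet the points lie right of 0, from 0.05 to 0.28, for resveratrol on it left of 0, and for resveratrol against the standard diet on both sides of 0.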

How the data were processed

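Liver RNA of 14 mice was hybridised to 14 two-colour Agilent arrays of 43790 spots (2256 of them controls; 41174 probes), grouped by the labels. Per the labels' protocols, RNA came off Qiagen RNeasy columns and was linearly amplified. Per the file headers, the deposited intensity values of spots and local background came from Agilent Feature Extraction 7.5.1. A table deposited beside them holds a score per probe, which tracks the log of the processed Cy3 signal (correlation 0.983 to 0.985) and whose scale the sources used here do not give.

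Signals were corrected by normexp (offset 50) and normalised by loess within arrays (controls at weight 0), and the sign was turned to Cy3 over Cy5. The 576 spots with an outlier flag were left out and spots of 1 probe averaged. Probes were named through RefSeq's genes of assembly GRCm38.p6 (20852 matched to 1 of 15940 genes, 20322 unmatched under the files' names). The brightest probe stood for a gene, and genes with a Cy3 signal well above background on 4 or more arrays were fitted in 1 model of the 3 groups (limma 3.58.1 in R 4.3.3, with version 1.17.8 of data.table) with Benjamini-Hochberg adjustment over all 32677 genes. The model was tested on simulated data. The labels call the mice replicates; array number limits precision.

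The members and lists were chosen with earlier results of these data known. Genes named were the called members, the 4 of smallest p where none was called, the members known for particular roles, those with the 3 largest spreads within groups, and up to 4 called genes per list. Equal replicate numbers are not stated to pair the mice, so no block was used in the main fit. Alternatives covered background correction, scaling, probe choice, filters, blocks, batches and leaving out each array; the values within each slide number series were added after seeing the data. The slide number series lie on either side of the widest gap between sorted numbers.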

Additional observations from a re-analysis of the deposited data

Results flagged for a closer look

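Mrps12 and Mrpl12 stood out for 1 mouse. Mrps12 was at -0.91 in standard-diet replicate 2, where the nearest standard-diet mouse was at -0.03 and the highest at 0.25. Mrpl12 was at -0.22 in the same mouse, where the nearest was at 0.45 and the highest at 0.55. In both the gap was larger than Dixon's critical value for 5 values, among 54 groups of values tested, and chance marks about 1 in 20 such groups. The same array was the dimmest and held the lowest value of 48 of the 75 members.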

How the results depend on the processing

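Counts of members called were few and moved with most choices, and the cause was not tested. For the high-calorie against the standard diet (4 higher, 1 lower, 3083 genes in all), leaving out each array gave 1 to 12 higher, 0 to 2 lower, a median of 0.05 to 0.13 and 1379 to 5993 genes. Median centring gave 16 higher, 0 lower and a median of 0.28, beside 2396 higher and 636 lower over all genes. The Cy3 channel alone gave 0 and 0 with 944 genes, and the deposited scores, which cover 68 members, 0 and 0 with 413. The scanner's processed signals gave 2 higher, no background correction 0 lower, and the mean of all probes 0 lower. The slide series as a block gave 2 higher, 0 lower and 1874 genes, the extraction day as a block 0 lower, and brightness as a covariate 1 higher, 0 lower and 858 genes. Within extraction day 1, day 2 and slide series 2 the counts were 0 higher and 0 lower, with 819, 55 and 837 genes.

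For resveratrol on the high-calorie diet (1 higher, 1 lower, 1760 genes), leaving out each array gave 0 to 1 higher, 0 to 4 lower, a median of -0.12 to -0.07 and 352 to 2571 genes. No member was called higher or lower (0 and 0) with the processed signals (698 genes), median centring (120), Cy3 alone (84), the deposited scores (47), the extraction day (445) or slide series (672) as a block, or within extraction day 1 (52), slide series 1 (0) or slide series 2 (44). No background correction gave 2 lower and 2695 genes, the filter on all 14 arrays 2 lower, and the mean of all probes 0 higher. With the replicate block the counts were 0 higher and 0 lower with 409 genes, and for the high-calorie diet 4 and 1 as without it. Over 13 pairs of same-numbered mice the deviations from the group means correlated at -0.19 to 0.30 (median -0.04). Over 52 pairs with different numbers they correlated at -0.28 to 0.31 (median -0.005). These values do not settle whether the numbers pair the mice, and the main fit took them as unpaired.

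For resveratrol against the standard diet no setting called a member. Leaving out each array gave 0 higher, 0 lower, a median of -0.03 to 0.04 and 23 to 214 genes (main 70). Median centring gave a median of 0.15 and 17 genes, and 32 genes passed without background correction, 32 with processed signals, 22 with Cy3 alone, 4 with the deposited scores, 10 with the slide block and 31 with brightness. Mrpl24 turned to 0.017 under median centring, and Mrpl57 to -0.00078 with Cy3 alone and -0.020 with the deposited scores. Every called gene kept its direction under the settings that could give it a value, and Mrpl16 passed in 24 of 29, Mrpl46 in 20 of 29, Mrpl42 and Mrpl13 in 12 of 29, Mrpl38 in 10 of 28, Mrps18b in 11 of 29 and Mrps11 in 13 of 29. The share of all calls that were higher was 56.9% for the high-calorie diet and 79.0% with median centring, 72.9% with Cy3 alone and 80.1% with the deposited scores; for resveratrol on it these were 58.7%, 25.8%, 26.2% and 31.9%. All members were well above background on all 14 arrays; what signal over background adds to these counts was not tested beyond the settings given. No slide-as-block fit was made because each slide carried 1 array.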
